A study of Mus musculus with 3 samples.

Results

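Axon guidance genes encode the cues that steer growing nerve fibres and the receptors and effectors that read those cues. They were described here in whole neural retina of 7-day-old mice by the 63 probe sets, groups of short oligonucleotides that read 1 transcript, whose single annotated gene symbol named an ephrin, Eph receptor, semaphorin, plexin, neuropilin, netrin, netrin receptor, Robo receptor, collapsin response mediator or Nogo gene. They belonged to 50 genes of the 8251 on the array, and to 12422 probe sets in all once controls were set aside. One of the 63, for Unc50, met the naming rule by its first letters alone: it encodes a protein of the secretory pathway and no netrin receptor. Another 5 read intracellular effectors or Nogo, so that 57 probe sets of 44 genes read ligands and receptors proper. Slit and repulsive guidance molecule genes, Nrp2, Ephb1, Ephb2, Ephb4, Unc5a and Unc5b had no such probe set and were not analysed here. The same held for Robo2 and Robo4 and for the plexin genes Plxna4, Plxnb1, Plxnb3 and Plxnc1.

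The 3 samples made up 1 group, so no groups were compared. Each held total RNA pooled from the neural retinas of 3 to 4 wildtype mice at P7, littermates of Rp1-/- animals on a background mixed from 129/SvEv and C57BL/6, with retinas taken at 1-2 pm. They are called pools 1, 2 and 3, and the numbers are names only. The labels say no more on how the pools came apart, so p-values reflect the spread of these 3 samples, and some of that spread may be technical.

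Values are the deposited intensities scaled to a common median, and the number of arrays limits their precision. The background bar of a pool was the intensity that only the top 10% of 63 genes of unrelated tissues passed: 277.8, 292.5 and 304.1 in pools 1, 2 and 3. A probe set below it had no measured level, which does not show that its gene was silent. Intensities of different probe sets do not give the order of transcript abundance and are not set against each other. In whole retina, fewer cells of a type and less RNA per cell cannot be told apart. The labelled tissue was checked by markers: 8 of 9 measured rod genes, 8 of 8 ganglion cell, 6 of 8 Müller glia, 7 of 11 amacrine and horizontal, 2 of 5 cone and 2 of 5 bipolar cell genes passed the bar in every pool, next to 45.5% of all genes. Of other cell types, 4 of 12 microglia, 2 of 12 vascular, 2 of 7 astrocyte and oligodendrocyte, 2 of 7 pigment epithelium and 1 of 4 red blood cell genes passed. Lens genes passed for 6 of 9 and were far lower in pool 1, with summed intensities of 26800, 126900 and 136400 in pools 1, 2 and 3.

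Guidance cues act in pairs of ligand and receptor. Ephrins and Eph receptors are bound to the membranes of neighbouring cells, and in the visual system their gradients set how ganglion cell axons map onto the brain. Semaphorins act through plexins, with neuropilins as partners for the secreted ones, and in the retina membrane-bound semaphorins help to sort neurites into the layers where synapses form. Netrin attracts axons through Dcc and repels them through Unc5 receptors, and Slit proteins repel through Robo receptors. Collapsin response mediators carry semaphorin signals to microtubules inside the growth cone.

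Of the 63 guidance probe sets, 26 (41.3%) were above the bar in all 3 pools, next to 38.8% of all probe sets, so the share lay near the background. A further 9 passed in 1 or 2 pools, and 28 (44.4%) in none, against 50.3% of all probe sets in none. With 1 probe set chosen per gene, 22 of 50 genes (44%) passed in every pool, next to 45.5% of all genes. Counting any probe set of a gene, 23 genes passed in every pool and 20 in no pool. The share of all genes counted in this way was not computed, so these counts have no background beside them. By role, 11 of 32 ligand probe sets (34.4%) and 9 of 25 receptor probe sets (36%) passed everywhere, as did all 5 of effectors and Nogo and that of Unc50. These shares were not tested against each other.

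**Figure D1:**
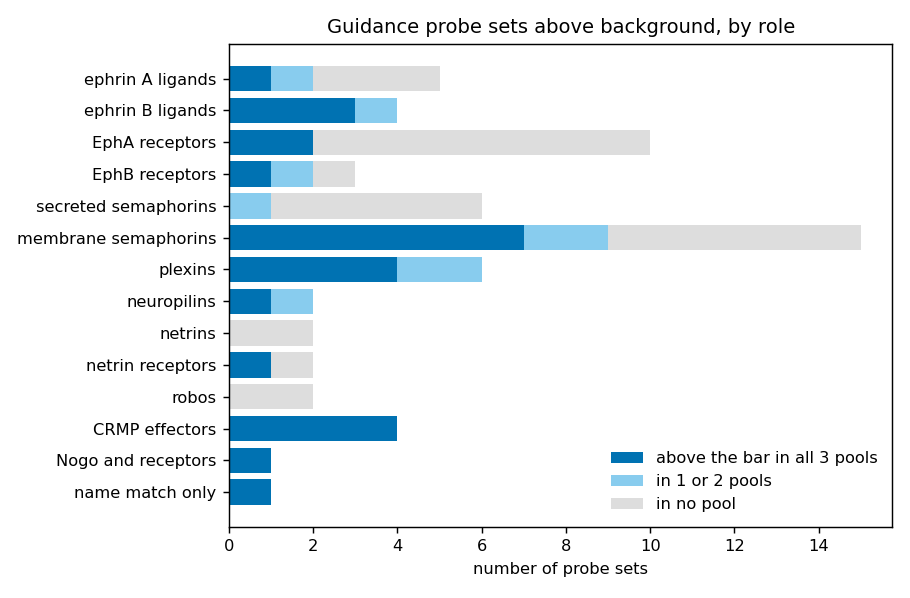
Number of guidance probe sets (horizontal axis) in each role, split by the number of pools in which they passed the background bar. All 4 probe sets of collapsin response mediators passed in every pool, whereas no secreted semaphorin, netrin or Robo probe set did.

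Among the ephrins, 3 of 4 probe sets of the transmembrane B class passed in every pool, and 1 of 5 of the A class. This stood next to 38.8% of all probe sets, and such small counts were not tested. Efna3, an ephrin held to the membrane by a lipid anchor, had intensities of 1192, 1563 and 1113 in pools 1, 2 and 3. The 3 values lay close together, with pool 2 the high one. Efnb2, a transmembrane ligand known from axons and arteries alike, was at 1099, 1290 and 985. Its mean was 1125 ± 154 (SD, n = 3 pools), the highest value being 1.31-fold above the lowest. Efnb3, another transmembrane ligand, was read by 2 probe sets, 103692_at at 982, 1007 and 779 and 94160_at at 501, 581 and 721. Both passed the bar everywhere but ranked the pools differently, pool 3 being lowest for the first and highest for the second.

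Efnb1 and Efna2 passed the bar in 2 of 3 pools. Efnb1 was at 277.4, 381 and 406, so that pool 1 lay just under its bar of 277.8. Efna2, a ligand of EphA receptors, was at 256, 379 and 589, rising above the bar in pools 2 and 3 only. Against the bar of pool 1, pool 3 was at least 2.12-fold higher. Efna1, Efna4 and Efna5 were below the bar in every pool. Efna5, a main repellent of the retinal map, was at 5.87, 27.3 and 27.7, under the floor of the log2 scale in each pool.

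Of 10 EphA receptor probe sets, 2 passed in all pools, those of Epha5 and Epha8, next to 38.8% of all probe sets. The difference was not tested. Epha5, a receptor graded across the retina, was at 317, 440.4 and 493 by probe set 161119_at, lowest in pool 1. Its other probe set, 98376_at, stayed below the bar at 173, 257 and 99.5. Epha8 was at 859.8, 860.5 and 1067, with pool 3 the high one. Pools 1 and 2 were nearly equal after median scaling only. They were at 893.7 and 790 without scaling, and at 883.6 and 796.7 after quantile normalisation. Epha2, Epha3, Epha4, Epha6 and Epha7 passed in no pool.

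Ephb6, an Eph receptor without kinase activity, was the single EphB receptor that passed everywhere, and by 1 of its 2 probe sets. That probe set, 162371_r_at, was at 359.8, 336 and 500. The other, 102871_at, was at 416, 491 and 264 and fell below the bar in pool 3, the pool in which the first was highest. The first is of a type made under relaxed design rules. Ephb3 was below the bar in every pool, at 63.1, 108 and 164.

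Of the 6 probe sets of secreted class 3 semaphorins none passed in all pools, next to 38.8% of all probe sets and without a test. Sema3f, a repellent read by neuropilin and A-type plexins, passed in pool 2 alone, at 149.6, 385 and 249. Sema3a, the classic growth cone collapsing factor, was below the bar at 91.5, 63.5 and 152. Sema3e, whose receptor is Plxnd1, was below it at 174, 189 and 48.3. The probe sets of Sema3b and of Sema3c had means of 8.43 to 19.1, below the bar everywhere.

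Membrane-bound semaphorins were seen for 6 of 11 genes, by 7 of 15 probe sets, next to 38.8% of all probe sets. Sema4a, a class 4 semaphorin whose loss makes photoreceptors degenerate, was at 394, 432 and 475. The highest pool was 1.21-fold above the lowest. Sema4d, a ligand of B-type plexins, was at 682, 561 and 779.6, lowest in pool 2. Sema4f was at 735, 870.4 and 603, highest in pool 2.

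Sema4b was read by 3 probe sets. Those that passed, 162133_at and 95387_f_at, were at 326, 439 and 519 and at 348, 488 and 415. The third, 94637_at, was below the bar at 77.6, 148 and 201. All 3 were lowest in pool 1, while pool 2 was highest for 95387_f_at and pool 3 for the others.

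Sema5b, which with Sema5a keeps inner retinal neurites in their layer through Plxna1 and Plxna3, was at 785, 924 and 782. The 3 pools lay within 1.18-fold. Sema5a itself was below the bar at 154, 149.1 and 187. Sema7a, held by a lipid anchor and read by Plxnc1 and by integrins, was at 609, 558 and 310.3 by probe set 93411_at. Pool 3, the low one, was just above its bar of 304.1 there. Another probe set, 97794_at, was below the bar at 194, 53.8 and 69.6.

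Class 6 semaphorins, ligands of A-type plexins, passed in some pools or none. Sema6c was at 467, 207 and 461 and fell below the bar in pool 2. Sema6d was at 155, 247 and 336 and passed in pool 3 alone. Sema6a was at 20.4, 117 and 192, and Sema6b at 48.4, 153 and 40.2, both below the bar everywhere.

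**Figure D2:**
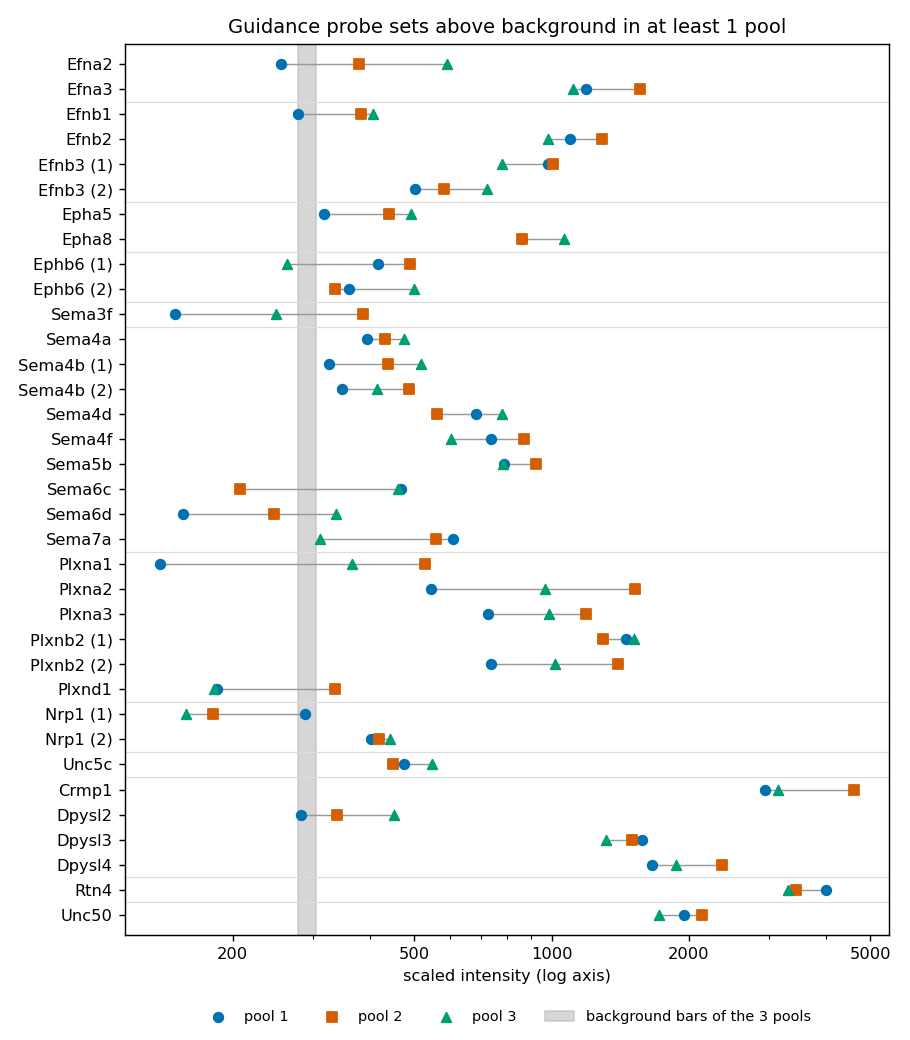
Scaled intensity (horizontal, log axis) of the 35 guidance probe sets that passed the bar in at least 1 pool, grouped by role. Each symbol is 1 pool, grey lines join lowest and highest pool, the grey band spans the 3 bars, and numbers in brackets separate probe sets of 1 gene. The 26 that passed everywhere lie wholly right of their pools' bars, and Plxna1 and Plxna2 have the longest lines among plexins.

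Plexins are the receptors of semaphorins. Of the 5 plexin genes measured, 3 passed in every pool, next to 45.5% of all genes. Plxna1 and Plxnd1 passed in some pools only. Of all probe sets, 50.3% passed in no pool, and none of these shares was tested. The A-type genes measured, Plxna1, Plxna2 and Plxna3, were lowest in pool 1. Plxna2 was at 545, 1525 and 970.1, a 2.80-fold range, with pool 2 the high one. Plxna3 was at 726, 1190 and 989.8, in the same order. Plxna1 was at 139, 528 and 366, again in that order, with pool 1 below the bar, so that pool 2 was at least 1.90-fold higher. All 3 kept this order of the pools in the deposited, unscaled values and under quantile normalisation.

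Plxnb2, a receptor also known from dividing neural precursors, was read by 2 probe sets. One, 96464_at, was at 738, 1402 and 1019, in the order of the A-type plexins. The other, 160311_at, was at 1454, 1297 and 1515 and had pool 2 lowest. Plxnd1, a receptor of vessels and neurons, was at 185, 335 and 182 and passed in pool 2 alone.

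**Figure D3:**
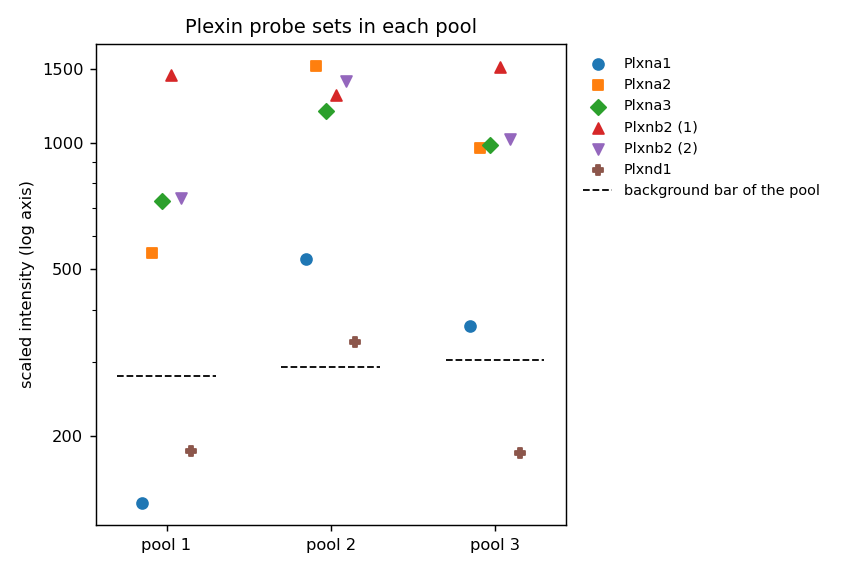
Scaled intensity (vertical, log axis) of the 6 plexin probe sets in each pool, with the background bar of each pool as a dashed line. Plxna1, Plxna2, Plxna3 and the second Plxnb2 probe set are lowest in pool 1 and highest in pool 2, whereas the first Plxnb2 probe set is lowest in pool 2.

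Spread was tested against that of other probe sets of like brightness. Of the 35 members bright enough to be tested, 0 were called by limma's variance test at an adjusted p below 0.05, next to 1.34% of all tested probe sets. That background depended on the scaling: 83 of 6211 probe sets were called after median scaling, and 6 of 6211 both without scaling and after quantile normalisation. At an unadjusted p below 0.05 there were 4 (11.4%), next to 6.76% of all: Plxna1, Plxna2, Sema6c and Efna2. The limma adjusted p was 0.0587 for Plxna1, 0.0802 for Plxna2, 0.556 for Sema6c and 0.694 for Efna2. Plxna1 was called under 2 of the alternatives, at a limma adjusted p of 0.0201 with 1 prior variance for all levels and 0.0447 without pool 3. Without scaling the limma adjusted p was 0.815 for Plxna1 and 0.670 for Plxna2, and after quantile normalisation 0.595 and 0.577. With limma's robust option off it was 0.286 and 0.340, and with dim probe sets kept 0.266 for both. The values near the threshold thus depended on the scaling and on the settings of the test. Without pool 1 the limma adjusted p of Plxna1 and of Plxna2 was 0.983. In data simulated for this test most changes near 2-fold were missed, so a missing call does not show equal levels.

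**Figure D4:**
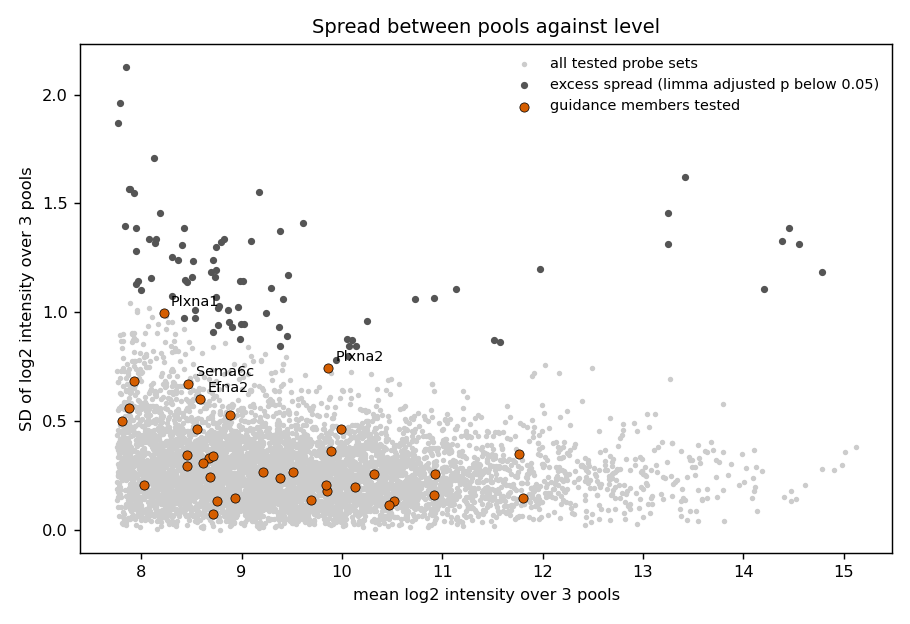
Standard deviation of log2 intensity over the 3 pools (vertical) against mean log2 intensity (horizontal) for the 6211 tested probe sets. Guidance members are orange, the named ones being those with an unadjusted p below 0.05, and dark points are the 83 probe sets with excess spread, none of them a guidance member.

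Some other values were lowest in pool 1 as well, as were 39.5% of all probe sets that passed everywhere. The lens list was lowest there, and its member Gja3 was below the bar in each pool. All 8 tested lens genes had excess spread after median scaling, next to 1.34% of all tested probe sets. The summed lens list was highest in pool 3. Of its measured genes, Crygs and Mip were highest in pool 2 and the others in pool 3. For the A-type plexins pool 3 lay between the other pools. Pool 1 also had the highest ratio of 3' to 5' signal for beta-actin, 1.81 against 1.27 and 1.3. For Gapdh, another control, the ratios lay closer together, at 0.874, 0.788 and 0.812 in pools 1, 2 and 3. The part of the lens signal or of these ratios in the plexin values was not tested.

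Among tested members, 6 of 35 (17.1%) had a highest pool more than 2-fold above the lowest, next to 8.63% of all tested probe sets: Plxna1, Plxna2, Sema3f, Efna2, Sema6c and Sema6d. For 5 of the 6 the lowest pool was below its bar, the exception being Plxna2. The count was 1 without pool 1 and 3 without pool 2. Measured against the bar where the lowest pool was below it, 2 of the 35 members that passed in at least 1 pool (5.71%) exceeded 2-fold, Plxna2 and Efna2, next to 4.45% of all probe sets that passed in at least 1 pool.

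The stretches of genome before these 2 genes are shown because they alone exceeded 2-fold when measured against the bar in this way. The 2 genes also ranked the pools differently. Sequences are from RefSeq on build GRCm38.p6, on the plus strand, and end where the annotated gene begins: chr1:194619579-194619790 for Plxna2 and chr10:80179232-80179481 for Efna2. Capitals mark GC boxes, the letters GGGCGG, a motif that Sp-family factors recognise.
Plxna2: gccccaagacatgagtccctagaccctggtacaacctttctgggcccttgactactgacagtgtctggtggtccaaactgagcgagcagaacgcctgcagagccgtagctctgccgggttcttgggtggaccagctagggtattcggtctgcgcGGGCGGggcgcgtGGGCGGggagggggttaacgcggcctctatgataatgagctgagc
Efna2: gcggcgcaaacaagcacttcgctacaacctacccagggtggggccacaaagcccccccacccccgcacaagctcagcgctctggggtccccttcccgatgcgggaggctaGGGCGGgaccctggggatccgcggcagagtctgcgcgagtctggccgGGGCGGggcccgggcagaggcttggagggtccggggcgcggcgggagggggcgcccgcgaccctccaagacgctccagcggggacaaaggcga

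Each of the printed stretches held 2 GC boxes, and their G+C content was 61.8% for Plxna2 and 73.6% for Efna2. The RefSeq promoter table had windows for 40 of the 50 member genes, 56 windows in all, of which the 250 bases before the start were searched on both strands. A GC box was in 42 of the 56 (75%), against 32.7% of all 32851 windows. Among windows of genes seen in every pool it was in 23 of 30, and among those of the other member genes in 19 of 26. The CCAAT box (CCAAT) was in 15 of 56 (26.8%), the TATA box (TATAAA) in 1 (1.8%) and the E-box (CACGTG) in 3 (5.4%), against 33.8%, 12.4% and 6.0% of all windows. The median G+C content was 63.8% in member windows and 52.4% in all. All windows include those of genes of every kind, and a match of letters is no sign that a factor binds.

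The remaining receptors were seen for 1 gene each in 2 families and for none in the third, the Robo family. Of that family only Robo1 and Robo3 were measured. Nrp1, which binds both Sema3a and the vascular growth factor, was at 402, 419 and 444 by probe set 95016_at, a 1.11-fold range. By 92773_at it was at 288, 181 and 158 and passed in pool 1 alone. Unc5c, a netrin receptor of repulsion, was at 475, 448 and 546. Dcc, the receptor of attraction, was below the bar at 35.4, 122.8 and 161. Robo1, a receptor of Slit proteins, and Robo3, of the same family, were below it too, at 181, 136 and 178 and at 72.4, 167 and 159. Ntn1, the netrin that guides axons out of the eye, was below the bar by both probe sets, the brighter one at 222, 276 and 289.

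All 5 probe sets of effectors and Nogo were above the bar in every pool, next to 38.8% of all probe sets and without a test. Crmp1, a cytosolic protein downstream of Sema3a, was at 2941, 4602 and 3142, highest in pool 2. Dpysl4 was at 1660, 2365 and 1877, in the order of the A-type plexins. Dpysl3, a member of the same family, was at 1576, 1503 and 1320. Dpysl2 was at 282, 338 and 452, and in pool 1 lay just above the bar of 277.8. Rtn4, which encodes Nogo, a reticulon that blocks axon regrowth, was at 4001, 3435 and 3302, a 1.21-fold range. Unc50, the match by name alone, was at 1951, 2141 and 1718.

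Where a gene had several probe sets, these often disagreed. There were 12 such genes with 25 probe sets. All probe sets passed in every pool for 2 genes, Efnb3 and Plxnb2, and none did for 4, Epha4, Epha7, Ntn1 and Sema3b. For the other 6 (Epha5, Ephb6, Nrp1, Sema4a, Sema4b and Sema7a) some passed and others did not, so that whether a gene counts as seen depended on the probe set. Eph receptors and ephrins are families of related sequence, and the match of the probes to other members was not checked.

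**Figure D5:**
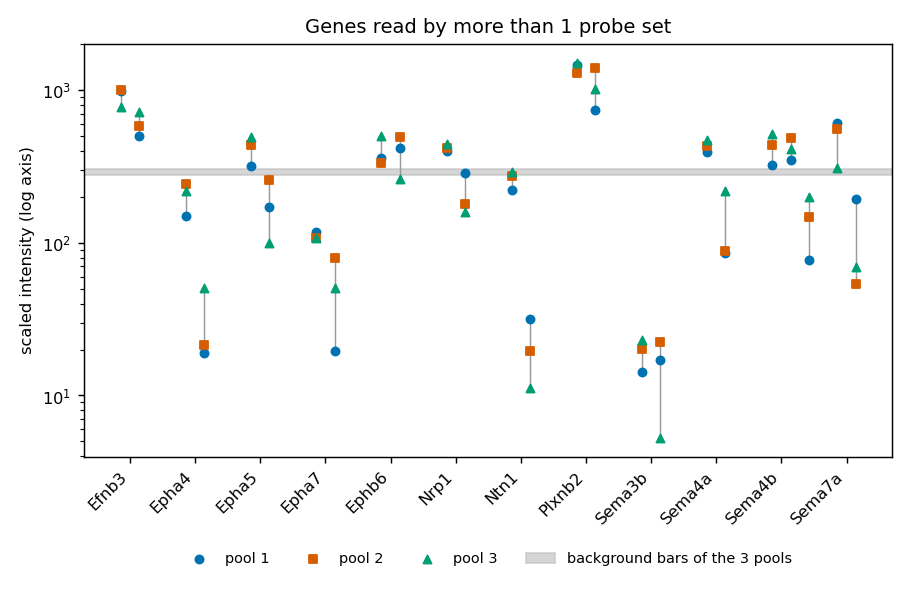
Scaled intensity (vertical, log axis) of each probe set of the 12 guidance genes read by more than 1, brightest probe set first. Symbols are pools and the grey band spans the 3 bars. For Epha5, Sema4a, Sema4b and Sema7a at least 1 probe set lies wholly above the band and another wholly below it.

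Ligands and receptors were also read as pairs of known partners, a gene counting as seen if any of its probe sets passed in every pool. Of 18 listed pairs with both sides measured, 2 had both above the bar: Ephb6 with Efnb2, and Plxna3 with Sema5b. The first rested on Ephb6 probe set 162371_r_at alone, since 102871_at fell below the bar in pool 3. Since 45.5% of all genes passed singly by their chosen probe set and the pairs share members, nothing is read from the number of pairs. In 6 pairs only the receptor passed: Epha5 and Epha8 with Efna5, Nrp1 with Sema3a, Plxna2 with Sema6a, and Unc5c and Neo1 with Ntn1. The list was not complete and held no pair with Efna3 or Efnb3, ephrins that passed in every pool. A receptor without its listed ligand may thus have had another ligand above the bar. Epha4 and Efnb2 were the 1 pair in which only the ligand passed, and in 9 pairs neither did. These pairs were within the retina, whereas much of axon guidance pairs a retinal receptor with a ligand in the brain.

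The order of the pools among the 26 members seen in every pool was mixed. Pool 1 was lowest for 13 (50%), pool 2 for 4 (15.4%) and pool 3 for 9 (34.6%), next to 39.5%, 16.7% and 43.7% of all probe sets that passed everywhere. Without scaling between arrays these counts were 10, 8 and 8, and after quantile normalisation 13, 7 and 6. Lowest and highest pool were the same under all 3 scalings for 18 of the 26. The median log2 deviation from the mean over pools was -0.10, 0.12 and 0.03 in pools 1, 2 and 3, next to -0.05, 0.12 and -0.08 over all such probe sets. Without scaling it was -0.04, -0.001 and 0.10, so the sign in pool 2 changed with the scaling. The highest pool was less than 1.5-fold above the lowest for 18 of 26 members (69.2%), next to 69.7% of all.

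Other genes of these pathways came from lists drawn up by function with earlier results of these data known, those of Limk1 among them. Of 36 measured genes downstream of guidance receptors, 20 passed in every pool, next to 45.5% of all genes, and 1 of the 25 tested had excess spread, next to 1.34% of all tested probe sets. It was Limk1, the kinase that switches off cofilin. A probe set that fell below the bar in pool 3 gave 1057, 1737 and 263 (limma adjusted p = 2.64e-07). This call was lost without scaling (limma adjusted p = 0.0834), after quantile normalisation (0.0763), with dim probe sets kept (0.266), without pool 2 (0.439) and without pool 3 (0.991). By its second probe set Limk1 was at 296, 362 and 315 (limma adjusted p = 0.992). Of 12 measured genes on a list of axonal adhesion molecules and phosphatases 6 passed, near the share of all genes. The list also held Nfia, a transcription factor of neither class, which was below the bar at 83.7, 107 and 114. Those that passed included Nrcam at 684, 856 and 578, Cntn1 at 1514, 1151 and 1507, Ncam1 at 6936, 7847 and 7652 and Ptprd at 1318, 971 and 1232. None of the 7 tested by limma had excess spread. Of 12 measured genes on a list for patterning of the retina along its axes 4 passed, below the share of all genes without a test. These were Vax2 of the ventral retina at 499.5, 692 and 705, Tbx2 of the dorsal retina at 1266, 1463 and 1347, and 2 more. Isl1, also counted above as a ganglion cell marker, was at 1038, 1223 and 791. The retinoic acid enzyme gene Aldh1a1 was at 1234, 1142 and 1851. None of the 5 genes of this list tested by limma had excess spread.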

How the data were processed

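For each of 3 MG-U74Av2 arrays (the type named in the sample titles) the authors deposited 1 linear intensity per probe set. How it was computed is not given in the sources used here. Trimmed means of the deposited values agreed, so arrays had been scaled: they were 497.6, 497.3 and 497.2. Of 12488 probe sets, 66 controls were left out. Names came from the platform annotation, updated by gene ID through RefSeq (GRCm38.p6), with 10833 probe sets having 1 gene, 396 several and 1193 none. Updating changed no member. Each array was brought to a common median (factors 0.962, 1.09 and 0.959), floored at the 20th percentile (42.2) and put on the log2 scale. Excess spread was tested with limma 3.58.1 in R 4.3.3: the variance over 3 arrays against squeezeVar's prior variance (robust, with the mean as covariate), for the 50% brightest probe sets, Benjamini-Hochberg adjusted over all 6211. The test was checked on simulated data. A gene's chosen probe set was one without a letter suffix, then the brightest. Every member gene was accounted for, and pathway genes were named if they had excess spread, otherwise the first 4 listed that passed the bar. Members and lists were chosen with earlier results of these data known.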

Additional observations from a re-analysis of the deposited data

How the results depend on the processing

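No guidance probe set had excess spread under 9 of the 11 alternatives to the limma test. The count was 1 with 1 prior variance, that of Plxna1, and 0 to 1 with 1 pool left out. Over all tested probe sets the calls went from 83 to 6 under both other scalings, 27 in the brightest 25%, 38 with the robust option off, 9 to 30 with 1 pool left out, and 0 of 12422 with dim probe sets kept (141 at an unadjusted p below 0.05, limma). The alternatives for Limk1 were chosen after seeing the data, and its call was lost under 5 of 11. The number with a range above 2-fold went from 6 to 19 with dim probe sets kept, whose low values are not measured levels, to 1 in the brightest 25% of probe sets, and 1 to 4 with 1 pool left out. The number above the bar in every pool went from 26 to 38 with the bar at the 75th percentile and 20 at the 95th, and was 24 without probe sets that carry a letter suffix, 26 under both other scalings and 27 to 29 with 1 pool left out. For genes it went from 22 to 33 and 18, and was 18 when probe sets were averaged per gene. No paired analysis was possible because the samples form 1 group. With 3 arrays and no detection calls, differences near 2-fold and levels near the bar were at the limit of what these data show.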
